A study of Homo sapiens with 8 samples.

Results

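The transcripts of 10 genes of the YAP/TEAD (Hippo) pathway were followed in CAKI1, an established cell line from a human renal carcinoma, with and without iron-loaded lipocalin-2 (holo Lcn-2, hLcn-2). They were taken by gene symbol from the 16782 genes of the deposited table, and all 10 were found there: YAP1, WWTR1, TEAD1, LATS2, AJUBA, AMOTL1, AMOTL2, CTGF (also called CCN2), CYR61 (also called CCN1) and ANKRD1. The 4 hLcn-2 samples were exposed for 24 h to hLcn-2 at 5 µg/mL and the 4 control samples were not stimulated. Cells had been grown with 10% fetal bovine serum and were starved of serum for 24 h beforehand. Samples are numbered 1 to 4 in each group, and nothing in the labels says that they came from separate cultures, so the tests measure the spread between these samples, which may be technical. All samples are of 1 cell line, and hLcn-2 was used at this single dose and time.

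The Hippo pathway is a chain of kinases in which LATS1 and LATS2 phosphorylate the coactivators YAP (gene YAP1) and TAZ (gene WWTR1) and keep them out of the nucleus. In the nucleus, YAP and TAZ bind the TEAD transcription factors and switch on genes such as CTGF, CYR61 and ANKRD1. The pathway is known for sensing cell density, cell shape and serum factors, and NF2, one of its upstream genes, is a tumor suppressor that is mutated in some renal carcinomas. YAP and TAZ are mainly controlled through phosphorylation and location, which RNA levels do not show.

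None of the 10 genes passed the threshold of an adjusted p-value of 0.05 in any of the fits run. Within the pairs of same-numbered samples, YAP1 and AJUBA were higher and WWTR1 was lower in hLcn-2-treated cells in 4 of 4 pairs, by 1.22-, 1.27- and 0.879-fold. CTGF had the largest difference, 0.76-fold, which came from hLcn-2 samples 3 and 4. The log2 fold change of CYR61, a secreted target like CTGF, was 0.13, and TEAD1, LATS2, AMOTL1 and AMOTL2 lay between 0.959- and 1.02-fold.

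The values are normalized counts on a scale close to CPM, which sets the reads of a gene against the size of its library. The libraries read only the 3′ end of each transcript and carried unique molecular identifiers, so that 1 read stands for 1 captured molecule. Whole reads could be recovered from all values, and the libraries held between 1501563 and 13953090 of them, with control 4 and hLcn-2 sample 3 (2088266 reads) as the shallowest. A gene with 3 reads lay at 0.211 CPM in the deepest library and at 1.98 CPM in the shallowest. Among markers of renal epithelium, PAX8 lay between 201 and 245 CPM, MET between 829 and 1049 CPM, KRT18 between 62.7 and 133 CPM, KRT8 between 25.4 and 43.9 CPM and PAX2 between 1.32 and 5.29 CPM. The leukocyte marker CD14 had at most 12 reads in a library, and PTPRC, CD3E, PECAM1, CDH5 and VWF were not found by symbol in the deposited table. Because the RNA was taken from all cells of a culture, fewer cells that express a gene and less RNA per cell cannot be told apart.

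TEAD factors bind DNA at a short motif, GGAATG, and the 250 bases before each annotated start were searched for it on both strands. RefSeq sequences of build GRCh38.p14 were held for 8 of the 10 genes, with 11 starts in all, and TEAD1 and CYR61 had none. The motif was in 5 of these 11 windows, 1 each for YAP1, AJUBA, AMOTL2, CTGF and ANKRD1. Of all 35116 windows of this length, 11.9% held it. Known TEAD targets are among the 10 genes by choice, so these shares are no test for an excess. Windows with the motif are shown for 4 genes, the targets CTGF, ANKRD1 and AMOTL2 and the gene with the largest positive difference, AJUBA. The YAP1 window, which also held it, and all windows without it are not printed. The motif is in capitals and each sequence is written 5′ to 3′ along the gene. The CTGF window lies on the minus strand at chr6:131951373-131951622, that of ANKRD1 on the minus strand at chr10:90921088-90921337, that of the downstream AMOTL2 start on the minus strand at chr3:134374448-134374697 and that of the downstream AJUBA start on the minus strand at chr14:22976843-22977092.
CTGF: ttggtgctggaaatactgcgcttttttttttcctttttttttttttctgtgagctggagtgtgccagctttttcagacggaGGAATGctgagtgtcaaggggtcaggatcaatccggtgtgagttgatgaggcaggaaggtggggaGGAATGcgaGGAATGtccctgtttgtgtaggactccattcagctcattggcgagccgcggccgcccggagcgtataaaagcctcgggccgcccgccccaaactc
ANKRD1: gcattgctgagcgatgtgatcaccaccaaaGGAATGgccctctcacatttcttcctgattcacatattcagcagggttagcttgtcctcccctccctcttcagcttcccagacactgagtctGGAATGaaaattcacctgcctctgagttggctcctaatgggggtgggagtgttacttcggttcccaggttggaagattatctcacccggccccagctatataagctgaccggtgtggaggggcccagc
AMOTL2: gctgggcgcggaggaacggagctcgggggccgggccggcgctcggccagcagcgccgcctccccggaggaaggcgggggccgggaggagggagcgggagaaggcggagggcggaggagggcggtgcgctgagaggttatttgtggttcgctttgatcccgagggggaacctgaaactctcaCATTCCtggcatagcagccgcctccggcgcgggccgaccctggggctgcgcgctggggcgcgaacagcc
AJUBA: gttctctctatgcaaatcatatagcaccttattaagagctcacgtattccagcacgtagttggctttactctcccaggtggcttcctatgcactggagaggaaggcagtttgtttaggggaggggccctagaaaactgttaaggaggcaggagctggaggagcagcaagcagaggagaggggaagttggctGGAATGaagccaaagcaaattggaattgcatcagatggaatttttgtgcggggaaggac

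The CTGF window held the motif 3 times, at -169, -104 and -95 bases from the start, and only 28 of all windows (0.0797%) held it 3 or more times. ANKRD1 had 2 matches, at -220 and -128. AMOTL2 had 1 match at -69 of its downstream start, on the opposite strand, where the motif reads CATTCC. AJUBA had 1 match at -59 of its downstream start. No match was found in the windows of WWTR1, LATS2 and AMOTL1, nor in those of the upstream starts of AJUBA and AMOTL2. This says only that these letters are not there. A match is a sequence of letters, and binding was not measured.

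**Figure D1:**
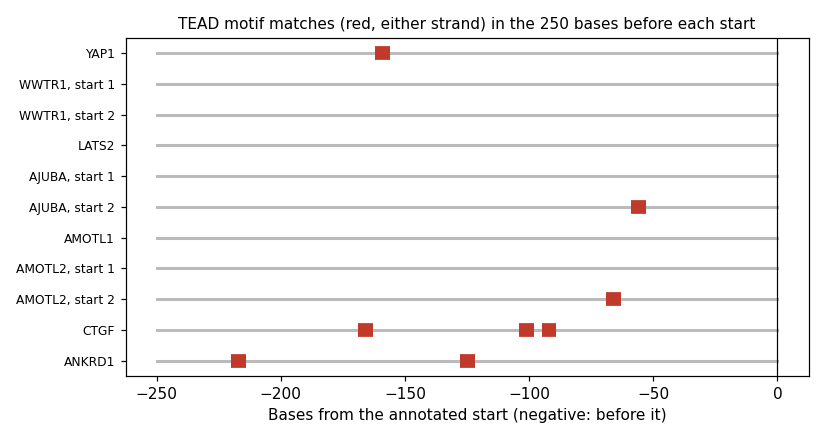
Position of the TEAD motif before the annotated starts of 8 of the 10 genes. Each grey line is a window of 250 bases, the horizontal axis gives bases from the start and red blocks are matches on either strand. CTGF has 3 matches and ANKRD1 2. The WWTR1, LATS2 and AMOTL1 windows and those of the upstream AJUBA and AMOTL2 starts have none.

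Limma tested the difference between hLcn-2 and control cells on log2(normalized count + 1) in 15593 genes, those that reached 1 CPM in 2 or more samples. All 10 genes passed this filter. A second fit took sample numbers as a block, because same-numbered samples deviated together from their group means, with correlations across genes between 0.312 and 0.610 in the 4 pairs. Log2 fold changes are on the scale with 1 added, which understates the difference of genes with few reads. Without the block, 0 of the 10 genes and 0 of all genes tested (0%) passed the adjusted threshold of 0.05 in limma. At an unadjusted p-value under 0.05 stood 0 of the 10 genes and 355 of all. With the block, limma called 0 of the 10 genes and 0.282% of all genes. At an unadjusted p-value under 0.05 there were 4 of the 10 genes with the block, YAP1 and AJUBA higher and WWTR1 and CTGF lower, beside 12.2% of all genes. Fitted to the recovered reads with the same block, the edgeR quasi-likelihood test called 0 of the 10 genes and 1.49% of all genes. At an unadjusted p-value under 0.05 it had YAP1, AJUBA and WWTR1, 3 of the 10, beside 13.4% of all genes. DESeq2 with the block called 0 of the 10 and 1.16% of all genes, and the same 3 genes had an unadjusted p-value under 0.05, beside 7.38% of all genes. When the intensity trend was dropped from limma with the block, 0 of all genes were called, and 1 of the 10, AJUBA, had an unadjusted p-value under 0.05, beside 1567 of all genes.

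**Figure D2:**
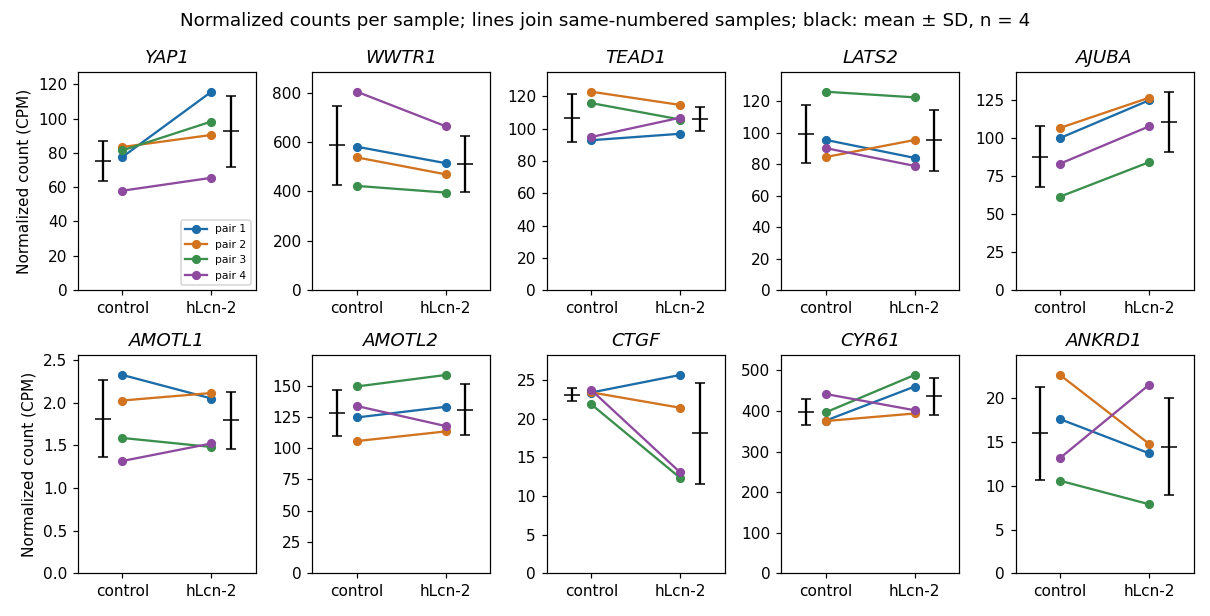
Normalized counts (CPM, vertical axis from 0) of the 10 genes in each sample, with control on the left and hLcn-2 on the right of each panel. Coloured lines join samples of the same number and black marks give the mean ± SD of 4 samples; the lines of YAP1 and AJUBA all go up, those of WWTR1 all go down, and those of CTGF split into 2 nearly level and 2 steep ones.

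The coactivators are given first. YAP1 (ENSG00000137693) lies on the plus strand of chromosome 11 of GRCh38 from 102110447 to 102233424, and a gene on the opposite strand overlaps its last exon, so that their reads can be told apart only if counting used strand, which is not stated. Its normalized counts were 77.6, 83.4, 81.4 and 57.9 CPM in controls 1 to 4 and 116, 90.4, 98.2 and 65.5 CPM in hLcn-2 samples 1 to 4. Each hLcn-2 sample was above the control of the same number, but hLcn-2 sample 4 lay below 3 of the controls, so the groups overlapped. The means were 75.1 ± 11.7 CPM in controls and 92.4 ± 20.8 CPM after hLcn-2 (SD, n = 4 each). YAP1 had a log2 fold change of 0.28, with a 95% interval from -0.12 to 0.69 without the block (adjusted p = 0.9999 in limma) and from 0.073 to 0.49 with it (adjusted p = 0.258). Pair 1 had the largest difference of YAP1, 0.57 on the log2 scale, and the other pairs lay between 0.12 and 0.27. Control 4 rested on 88 reads of YAP1. Its exact 95% Poisson interval, 46.5 to 71.4 CPM, held the value of 65.5 CPM in hLcn-2 sample 4, so that the difference of pair 4 was within counting error.

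WWTR1 (ENSG00000018408), which encodes TAZ, spans 149517235 to 149736714 of chromosome 3 on the minus strand. Control values were 581, 537, 422 and 803 CPM, and those of the hLcn-2 samples were 514, 469, 395 and 663 CPM. All 4 pairs went down, by 0.18, 0.20, 0.095 and 0.28 on the log2 scale in pairs 1 to 4. The spread between the pairs was larger than the difference within them, since the mean log2 levels of pair 4 and pair 3 lay 0.84 apart. With means of 586 ± 160 CPM and 510 ± 113 CPM (SD, n = 4 each), the log2 fold change was -0.19, from -0.63 to 0.26 without the block (adjusted p = 0.9999 in limma) and from -0.34 to -0.035 with it (adjusted p = 0.305). WWTR1 had 800 reads or more in every library. In pair 3 the exact 95% Poisson interval of the hLcn-2 sample, 368 to 423 CPM, held the control value of 422 CPM, so that this difference was within counting error.

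The counts of YAP1 and WWTR1 were also divided by each other within each sample, a measure that was chosen after their values were seen and is free of the library size. The YAP1 to WWTR1 ratio was 0.134, 0.155, 0.193 and 0.0721 in controls and 0.225, 0.193, 0.249 and 0.0987 in hLcn-2 samples. In each of the 4 pairs the ratio was higher in the hLcn-2 sample, by 0.75, 0.31, 0.37 and 0.45 on the log2 scale. Pair 4 had the lowest ratio in either group, and the groups overlapped. It is given as a description with no test, since YAP1 higher and WWTR1 lower fix its direction.

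TEAD1 (ENSG00000187079; chromosome 11, plus strand, 12674421 to 12944737), the DNA-binding partner of YAP and TAZ, had 92.8, 123, 116 and 94.8 CPM in controls and 96.8, 115, 106 and 107 CPM after hLcn-2. It was higher in 2 pairs and lower in 2. The log2 fold change of TEAD1 was -0.00011, and the 95% interval with the block, -0.19 to 0.19, holds folds between 0.879 and 1.14. Of its paralogues, TEAD3 had 17.9 ± 0.963 CPM in controls and 21.1 ± 2.62 CPM after hLcn-2 (SD, n = 4 each) with all 4 pairs higher (limma with the block, adjusted p = 0.536). TEAD4 had 8.81 ± 1.67 CPM and 8.18 ± 2.18 CPM (SD, n = 4 each), with 2 pairs in each direction. TEAD2 was not found by symbol in the deposited table.

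LATS2 (ENSG00000150457; chromosome 13, minus strand, 20973036 to 21061586), a kinase that inactivates YAP and TAZ and is itself one of their target genes, had 95.4, 84.5, 126 and 90.2 CPM in controls. The hLcn-2 samples had 84.0, 95.4, 122 and 78.9 CPM. Pair 3 was the highest for LATS2 in both groups, and 3 of 4 pairs were lower after hLcn-2. LATS2 differed by -0.060 on the log2 scale, with a 95% interval from -0.26 to 0.13 with the block (adjusted p = 0.839 in limma). The related kinase LATS1 had 45.7, 55.8, 58.7 and 37.5 CPM in controls and 63.6, 70.7, 65.2 and 48.7 CPM after hLcn-2. All 4 pairs of LATS1 were higher, and its log2 fold change was 0.33 (adjusted p = 0.186 in limma and 0.0776 in edgeR, both with the block). Whether LATS1 and LATS2 differ in their response was not tested.

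AJUBA (ENSG00000129474; chromosome 14, minus strand, 22971177 to 22982551) encodes a LIM-domain protein that binds LATS kinases at cell junctions and restrains them. Its values were 99.8, 106, 61.3 and 83.0 CPM in controls and 125, 126, 83.9 and 107 CPM in hLcn-2 samples. The differences of its pairs were 0.32, 0.24, 0.45 and 0.37 on the log2 scale, the narrowest spread relative to the mean difference among the 10 genes. Samples with the number 3 were the lowest of their group, and without hLcn-2 sample 3 every other hLcn-2 value of AJUBA was above every control. The means were 87.6 ± 20.1 CPM in controls and 111 ± 19.7 CPM after hLcn-2 (SD, n = 4 each). The log2 fold change was 0.34, from -0.076 to 0.76 without the block (adjusted p = 0.9999 in limma) and from 0.16 to 0.52 with it (adjusted p = 0.110). In edgeR with the block the adjusted p-value of AJUBA was 0.0562, the lowest that any of the 10 genes had in any fit.

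The angiomotin family members AMOTL1 and AMOTL2 hold YAP at junctions and in the cytoplasm, and AMOTL2 is also a target gene of YAP and TAZ. AMOTL2 (ENSG00000114019; chromosome 3, minus strand, 134355347 to 134375479) had 125, 106, 149 and 134 CPM in controls and 133, 113, 158 and 118 CPM after hLcn-2. In pairs 1 to 3 it was higher by 0.095, 0.10 and 0.086 on the log2 scale, and in pair 4 lower by 0.18. Its log2 fold change was 0.025, with a 95% interval from -0.16 to 0.20 with the block (adjusted p = 0.936 in limma), and the annotation places the pseudogene RPL39P5 in its last exon on the same strand. AMOTL1 (ENSG00000166025; chromosome 11, plus strand, 94706431 to 94876748) also has a gene on the opposite strand and was near the limit of detection, with 33, 27, 9 and 2 reads in controls and 23, 15, 3 and 7 reads in hLcn-2 samples. These reads gave between 1.32 and 2.32 CPM, and the exact 95% Poisson interval of control 4, which covers counting error only, ran from 0.159 to 4.76 CPM. No difference of AMOTL1 was detectable at this depth, and its 95% interval with the block held folds between 0.709 and 1.40.

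The log2 fold changes of the target genes had different signs, but none passed the adjusted threshold and a difference between them was not tested. CTGF (ENSG00000118523; chromosome 6, minus strand, 131948176 to 131951372), a secreted matrix-associated protein, had 23.4, 23.4, 21.9 and 23.7 CPM in controls, which were close together. In hLcn-2 samples 1 and 2 it had 25.7 and 21.4 CPM, and in hLcn-2 samples 3 and 4 it had 12.3 and 13.0 CPM. The mean was 23.1 ± 0.833 CPM in controls and 18.1 ± 6.50 CPM after hLcn-2 (SD, n = 4 each), so that the spread was larger in the treated group. The log2 differences of its pairs were 0.13, -0.12, -0.78 and -0.81. Behind the low values stood 25 reads in hLcn-2 sample 3 and 60 reads in hLcn-2 sample 4, with exact 95% Poisson intervals from 7.99 to 18.2 CPM and from 9.96 to 16.8 CPM. These are the shallowest libraries of the hLcn-2 group, but the shallower control 4, with 36 reads of CTGF, had 23.7 CPM with an interval from 16.6 to 32.8 CPM. The part of depth in the low values was not tested. The log2 fold change was -0.40, from -0.90 to 0.11 without the block (adjusted p = 0.9999 in limma) and from -0.76 to -0.033 with it (adjusted p = 0.364). Fitted to the recovered reads with the block, it was -0.24 in edgeR (adjusted p = 0.576) and -0.32 in DESeq2 (adjusted p = 0.602). Without hLcn-2 sample 1, the other hLcn-2 values of CTGF were all below the controls. The nearest were hLcn-2 sample 2, at 21.4 CPM with a Poisson interval from 18.1 to 25.1 CPM, and control 3 at 21.9 CPM. How many of all genes separate with a sample left out was not counted.

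CYR61 (ENSG00000142871; chromosome 1, plus strand, 85580761 to 85584589), which like CTGF is secreted and binds integrins, had 376, 375, 397 and 442 CPM in controls. After hLcn-2 it had 460, 394, 489 and 402 CPM. Pairs 1 to 3 were higher, by 0.29, 0.070 and 0.30 on the log2 scale, and pair 4 was lower by 0.14. With 671 reads or more per library, CYR61 varied least of the 10 genes, 1.30-fold between the lowest and the highest sample. Its means were 397 ± 31.2 CPM and 436 ± 45.9 CPM (SD, n = 4 each), and the log2 fold change was 0.13, from -0.052 to 0.31 with the block (adjusted p = 0.583 in limma). In hLcn-2 sample 3, CTGF thus had its lowest and CYR61 its highest value of all 8 samples.

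ANKRD1 (ENSG00000148677; chromosome 10, minus strand, 90912096 to 90921087), a nuclear and sarcomeric ankyrin repeat protein, varied most, 2.87-fold between the lowest and the highest sample. Its values were 17.6, 22.7, 10.6 and 13.2 CPM in controls and 13.7, 14.8, 7.90 and 21.5 CPM in hLcn-2 samples. Pairs 1 to 3 were lower, by 0.34, 0.58 and 0.38 on the log2 scale, and pair 4 was higher by 0.67. Control 4 rested on 20 reads, with an exact 95% Poisson interval from 8.04 to 20.3 CPM, and hLcn-2 sample 4 on 99 reads. In pair 3 the hLcn-2 sample rested on 16 reads. Its interval, 4.52 to 12.8 CPM, held the control value of 10.6 CPM, so that this difference was within counting error. For ANKRD1 the log2 fold change was -0.16, from -0.58 to 0.26 with the block (adjusted p = 0.802 in limma). Without pair 4 it was -0.43 (adjusted p = 0.219 in limma with the block). In pair 4, ANKRD1 was higher while CTGF, CYR61 and AMOTL2 were lower.

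**Figure D3:**
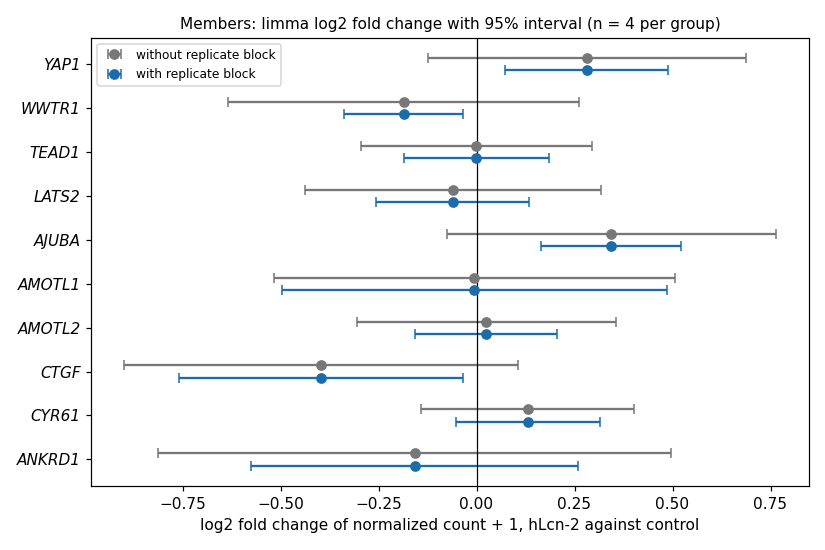
Log2 fold change of each of the 10 genes between hLcn-2 and control samples (horizontal axis, normalized count + 1) from limma without (grey) and with (blue) the replicate block, n = 4 per group. Bars are 95% intervals, not adjusted for the number of genes; with the block those of YAP1, WWTR1, AJUBA and CTGF do not reach 0, although no adjusted p-value was under 0.05.

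As a group, the 10 genes had a median log2 fold change of -0.0027, beside 0.00083 over all genes tested, with 4 genes above and 6 below 0. In 4 of 4 pairs, 2 of the 10 were higher and 1 was lower, where 9.93% of all genes tested were higher and 10.9% lower in every pair. No gene of the 10 was without overlap between the groups, against 1.88% of all genes tested. The sign of 4 pairs alone cannot give an exact p-value under 0.125, and the exact permutation test of 4 against 4 samples cannot go below 0.0286.

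Further genes of the Hippo pathway were listed by hand, and 25 of the 30 were found in the table. Limma called 0 of these 25, whether or not the block was used, while unadjusted p-values under 0.05 numbered 0 without and 4 with it. This is 16% of the 25, close to the 12.2% of all genes tested. Their median log2 fold change was -0.019. In the kinase cassette of STK3, STK4, SAV1, LATS1, MOB1A and MOB1B, LATS1 and MOB1A were higher and STK4 was lower in 4 of 4 pairs. MOB1A encodes an activating subunit of the LATS kinases and differed by 0.23 on the log2 scale (limma with the block, adjusted p = 0.265). Of the 16 upstream and junctional genes, WWC1 and FRMD6 were lower and WWC3 was higher in 4 of 4 pairs, with adjusted p-values of 0.274, 0.646 and 0.605 in limma with the block. Genes that moved one way in every pair made up 28% of the 25 and 20.8% of all genes tested.

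A second list held 17 further genes of a published YAP/TAZ target signature, all of which were in the table. In limma 0 of the 17 were called in either fit, and unadjusted p-values under 0.05 numbered 0 without and 3 with the block. This is 17.6% of the 17, again beside 12.2% of all genes tested. The median of this list was 0.030, with 9 genes above and 8 below 0. In 4 of 4 pairs, MYOF, ASAP1 and CRIM1 were higher and CCDC80 was lower. Genes that moved one way in every pair made up 23.5% of this list and 20.8% of all genes tested. MYOF, ASAP1 and CRIM1 had log2 fold changes of 0.17, 0.041 and 0.22. Their adjusted p-values in limma with the block were 0.362, 0.858 and 0.305. CCDC80, which encodes a secreted matrix protein, had 318, 215, 254 and 273 CPM in controls and 252, 190, 153 and 272 CPM after hLcn-2, which is -0.31 on the log2 scale (limma with the block, adjusted p = 0.237). CCDC80, like CTGF, had its lowest value in hLcn-2 sample 3, but in pair 4 its difference was -0.0077.

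**Figure D4:**
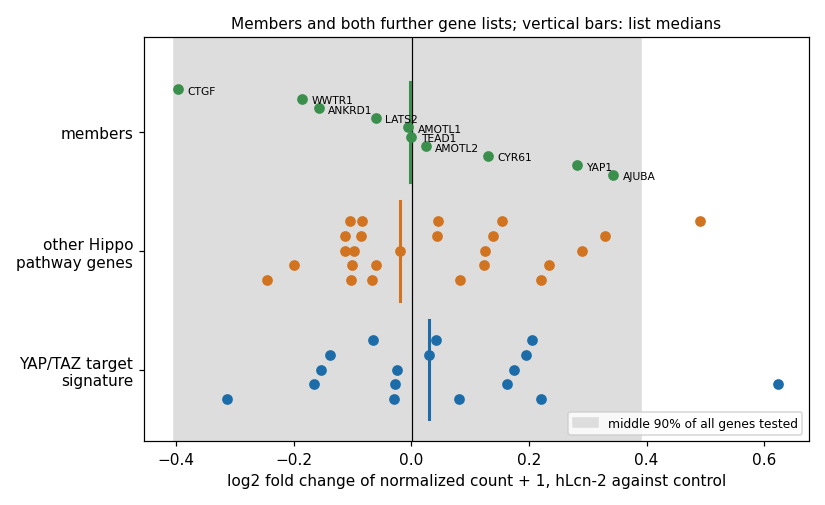
Log2 fold change (horizontal axis, normalized count + 1, hLcn-2 against control, limma without the replicate block) of the 10 genes, 25 other Hippo pathway genes and 17 further YAP/TAZ target genes. Each point is a gene, vertical bars are list medians and the grey band holds the middle 90% of all genes tested; the medians of -0.0027, -0.019 and 0.030 lie close to 0.

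The genes with the pattern most like CTGF over the 8 samples were sought among 9006 genes with a mean of at least 10 CPM, by the root mean square difference of their centred log2 values. They were MPV17L2 (0.14), IER5 (0.14) and MRPL16 (0.16), where the variation of CTGF itself was 0.36 on the same scale. IER5, an immediate early response gene, had between 50.1 and 59.4 CPM in controls, 70.8 and 57.1 CPM in hLcn-2 samples 1 and 2, and 30.1 and 26.3 CPM in samples 3 and 4. Most like CYR61 were KLHL20 (0.057), NAA20 (0.070) and CAND1 (0.070), with a variation of CYR61 itself of 0.13. None of these 6 genes is in the lists above.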

How the data were processed

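RNA of 4 control and 4 hLcn-2-treated samples of CAKI1 cells was sequenced as 3′ mRNA libraries with unique molecular identifiers. Per the study's methods, the authors mapped reads with STAR (GRCh38), collapsed them by identifier and counted genes by HTSeq. Whether counting used strand, and the versions of these tools, are not given in the sources used here. Each deposited value is a normalized signal, a count divided by the scaled library size. Whole reads came out for 100.0% of 134256 values within 0.001 reads. The table held 1 cell with a decimal comma, read as a point.

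Limma 3.58.1 (R 4.3.3, intensity trend, two-sided, Benjamini-Hochberg over all genes) was run on log2(value + 1). As alternatives, edgeR 4.0.16 and DESeq2 1.42.0 took the recovered reads. Same-numbered samples deviated together (mean correlation 0.50), so the numbers were taken to pair them, a hint from the data that the labels do not explain. Gene positions are from GENCODE 44. The 10 genes and both further lists were chosen with earlier results of these data known, so that no list was tested. Named from the lists were TEAD2, TEAD3, TEAD4 and LATS1 as paralogues, genes past the threshold in limma with or without the block, and genes that moved one way in every pair by at least 0.3 on the log2 scale. STK4, MOB1A, WWC1, WWC3, FRMD6, MYOF, ASAP1 and CRIM1 were named after their values were seen. Poisson intervals of single samples and floors cover counting error only. The intervals of log2 fold changes are from limma and rest on the spread between samples.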

Additional observations from a re-analysis of the deposited data

How the results depend on the processing

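The 10 genes and both further lists had 0 calls at an adjusted p-value under 0.05 in every alternative run, with each sample or pair left out as well. A threshold of 0.1 was applied only to limma without the replicate block. There it could call nothing, since the lowest adjusted p-value of any gene was 0.9999. With the block, AJUBA lay under 0.1 in edgeR (adjusted p = 0.0562) and DESeq2 (0.0829). It did so too in limma with TMM factors (0.0929) or a filter on a mean of 10 CPM (0.0764). LATS1 lay under 0.1 in edgeR with the block (0.0776). YAP1, AJUBA and CYR61 stayed above 0 and WWTR1 and CTGF below 0 throughout, with log2 fold changes of 0.16 to 0.44 for YAP1, 0.18 to 0.47 for AJUBA, 0.074 to 0.22 for CYR61, -0.33 to -0.021 for WWTR1 and -0.58 to -0.24 for CTGF. The replicate block changed no call of the 10 genes. Over all genes tested, limma called 44 genes with the block (34 higher), 45 with pseudocount 5, 36 with column totals (22 higher), 69 with TMM factors (57 higher) and 85 with a filter on a mean of 10 CPM, the last 4 chosen after seeing the data, and 0 when the intensity trend was dropped. With the block, edgeR called 233 and DESeq2 181 genes. With a pair left out, limma with the block called 0 genes without pair 3, 3 without pair 2, 13 without pair 1 and 54 without pair 4.

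With TMM factors, TEAD1 was at 0.012 and AMOTL1 at 0.0028, with or without the block, and TEAD1 was at 0.0039 in edgeR with the block. With column totals AMOTL2 was at -0.0068, with or without the block. With 1 sample left out, TEAD1 ranged from -0.062 to 0.071, LATS2 from -0.19 to 0.060, AMOTL1 from -0.094 to 0.080, AMOTL2 from -0.072 to 0.10, ANKRD1 from -0.36 to 0.083 and TEAD4 from -0.23 to 0.047. With the block and a pair left out, TEAD1 ranged from -0.057 to 0.044 (0.033 without pair 2), AMOTL1 from -0.048 to 0.035 (0.013 without pair 3), AMOTL2 from -0.00079 to 0.094, ANKRD1 from -0.43 to -0.016 and TEAD4 from -0.20 to 0.035. Of the 10 genes, 3 to 6 moved one way in all pairs left when a pair was left out, 6 of them without pair 4. Between 0 and 1 had no overlap with a sample left out, CTGF without hLcn-2 sample 1, AJUBA without hLcn-2 sample 3 and YAP1 without hLcn-2 sample 4. The share of all genes was not counted in these left-out settings. Both patterns become more frequent with fewer pairs or samples, so these counts cannot be set against the shares given for the full set. The cause of the shifts in this paragraph was not tested. AMOTL1 was not in the fits with a filter on a mean of 10 CPM, and DESeq2 with the block gave it no adjusted p-value.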
